A study of Sus scrofa with 8 samples.

Results

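Cytokines and chemokines are secreted signals that call leukocytes into tissue and set the inflammatory state of the cells they reach. Here they are represented by 9 genes: the chemokines CCL2 and CXCL12, the interleukins IL1B, IL6, IL15 and IL18, tumour necrosis factor (TNF), transforming growth factor beta 1 (TGFB1) and MYD88, the adaptor protein through which Toll-like and interleukin 1 receptors signal. The members are the probe sets of an Affymetrix porcine array whose platform annotation carries one of these symbols. All 9 genes were found, with 13 of the 23999 probe sets: CXCL12, TGFB1, MYD88 and IL1B had 2 probe sets each and the other 5 genes had 1. Where a gene had 2, the one with the higher mean level over the 8 arrays is called its leading probe set. In skeletal muscle, glucocorticoids are known to repress many inflammatory genes by restraining the transcription factor NF-kB, which is itself activated by endotoxin, IL1B and TNF. Muscle fibres release some cytokines themselves, whereas much CCL2, IL1B, IL18 and TNF in inflamed muscle comes from macrophages.

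The tissue was biceps femoris, from the hind limb of female domestic piglets, in a model of acute quadriplegic myopathy, the limb weakness that follows intensive care, and all carry that disease label. The corticosteroid group (4 arrays) came from piglets whose protocol text describes bolus doses of hydrocortisone over 5 days, and which names 8 piglets averaging 26.4 kg. The control group (4 arrays) came from piglets labelled as treated with sedation and ventilation up to day 5, and their protocol text names 4 piglets averaging 25.5 kg. Both texts share isoflurane sedation with morphine and ketamine as needed, ventilation through a tracheotomy, intravenous crystalloid, a glucose infusion, streptomycin and benzylpenicillin. The control text also names a 1 h infusion of Escherichia coli endotoxin at 36 µg/kg/h, although their source label does not mention it, and the series text names pancuronium, a neuromuscular blocker, at 0.1 mg/kg/h without saying which animals received it. Endotoxin is a classical inducer of several, though not all, of the genes described here. An endotoxin effect in the controls cannot be told apart from a corticosteroid effect. Ages are not stated, and the labels leave unsaid whether the arrays of a group are separate animals. The p-values therefore cover only the spread among these arrays, which may be partly technical.

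The values are log2 levels per probe set, and array medians lay between 5.86 and 5.97. Of the 12 skeletal muscle fibre markers listed, 8 were on the array and all 8 were above the level filter. Their summed linear level was 77888 to 86806 on corticosteroid arrays and 68764 to 85181 on control arrays, lowest on control replicate 2. The corticosteroid columns were first re-assigned to the probe IDs sorted as text with the full stops ignored, which moves 39.1% of the rows. Across the moved rows, corticosteroid and control means had a correlation of 0.989 after re-assignment and 0.0997 as listed, a description over probe sets and not over animals. This touches 10 of the 13 member probe sets in the corticosteroid group. The leading probe set of IL1B, the second probe set of CXCL12 and the probe set of IL15 lie in rows that do not move, and all control values are as listed. A probe set was tested, and is otherwise called dim, where its mean over the 8 arrays was above the 40th percentile of all probe sets (log2 5.27). On that basis 8 member probe sets of 7 genes were tested, and 5 were dim: both IL6 and TNF, and the second probe sets of TGFB1, MYD88 and IL1B.

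No member passed the test between the groups. Of the 8 tested member probe sets, 0 had an adjusted p under 0.05 in limma, as did 0.00% of the 14361 probe sets tested, and the smallest adjusted p among members was 0.524, for CXCL12. At an unadjusted p under 0.05 there was 1 member probe set, the leading one of CXCL12, which was higher with corticosteroid. Over all probe sets tested, 9.49% lay under that level, 4.78% higher and 4.71% lower. The mean was lower with corticosteroid for 6 of the 8 tested members, against 47.2% of all probe sets tested, with a median log2 difference of -0.37 over the members and 0.02 over all. In none of the 8 did the corticosteroid and control arrays separate without overlap, against 5.56% of all probe sets tested. One array carried the high values of most tested members, though not of CXCL12 or IL15. Control replicate 2 was the highest of the 8 arrays for 5 of the 8 tested members, the leading probe sets of CCL2, TGFB1, MYD88, IL1B and IL18, against 17.6% of all probe sets tested. It stood over 1 log2 unit above the mean of the other 3 controls for the same 5, against 6.43% of all. Without it, the median difference over the tested members was -0.22, against 0.01 over all, with 0 members and 8.70% of all probe sets at an unadjusted p under 0.05.

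**Figure D1:**
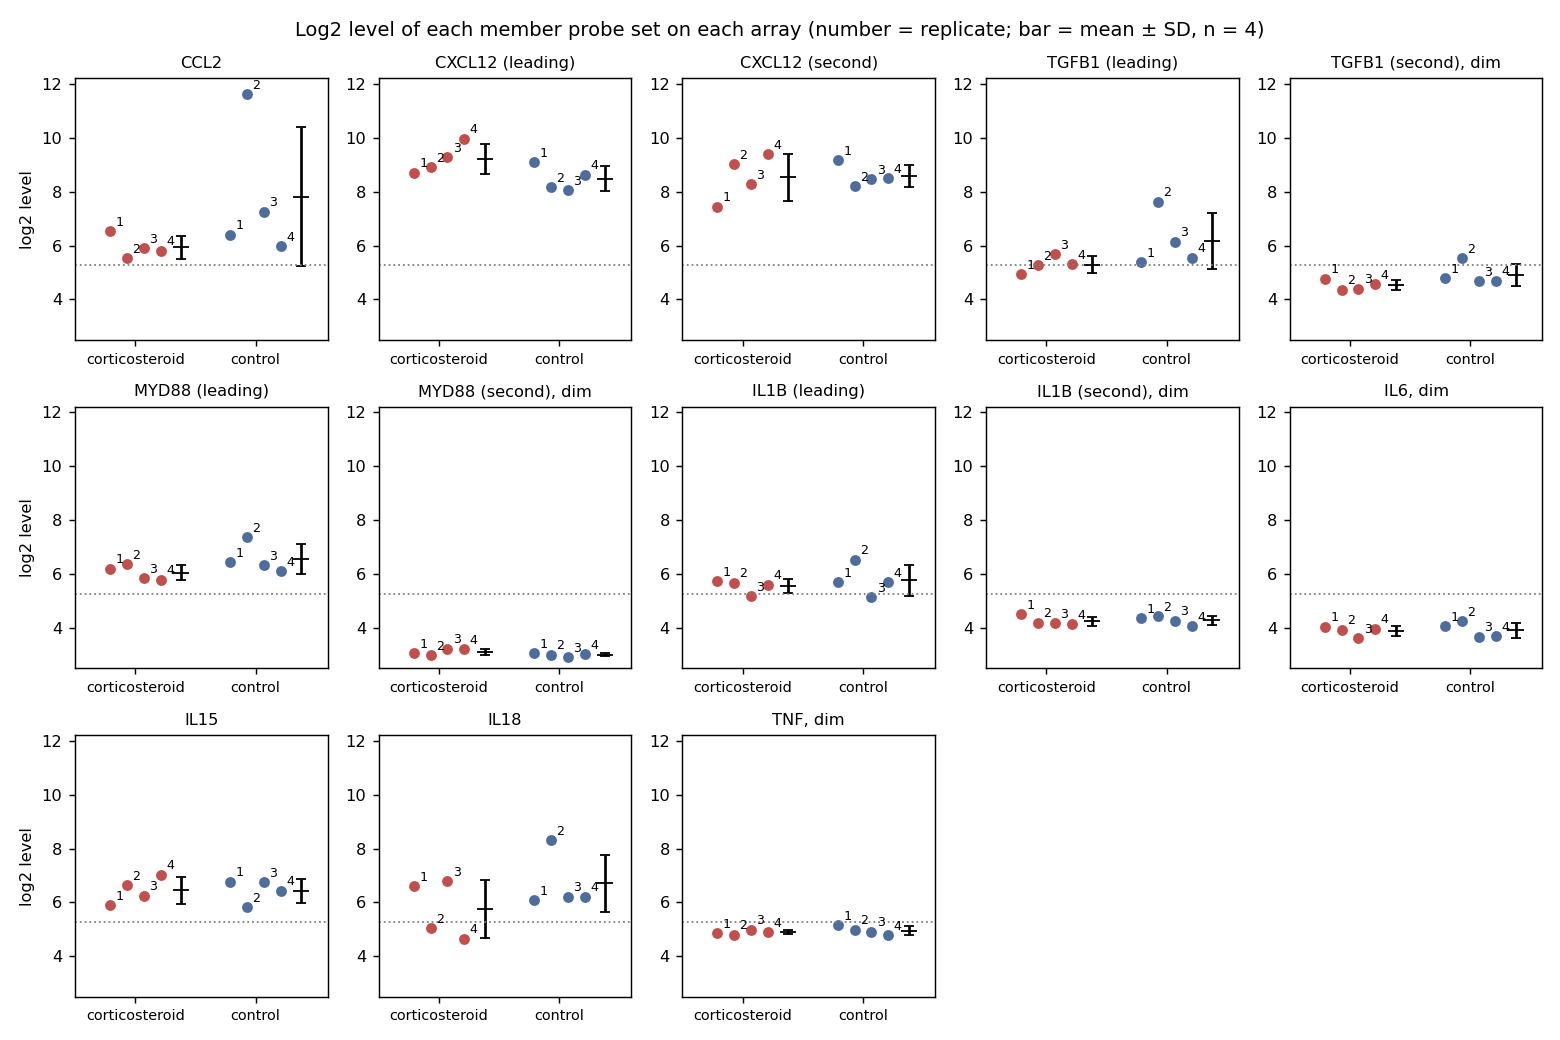
Log2 level (y axis) of the 13 member probe sets on 4 corticosteroid and 4 control arrays (x axis, points numbered by replicate), with the mean ± SD (n = 4) beside each group and the test's level filter (log2 5.27) as a dotted line. Control replicate 2 stands apart for CCL2 at 11.61, IL18 at 8.31 and TGFB1 at 7.63, while the dim probe sets of IL6, TNF, MYD88 and IL1B lie flat below the line.

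CCL2, also known as MCP-1, is the chemokine that draws monocytes into tissue through the receptor CCR2. Its log2 level was 6.53, 5.53, 5.91 and 5.81 on corticosteroid replicates 1 to 4, against 6.40, 11.61, 7.25 and 5.98 on control replicates 1 to 4. Control replicate 2 lay 5.06 log2 units above the mean of the other controls, whose range overlapped that of the treated arrays. The mean was 5.94 ± 0.42 with corticosteroid and 7.81 ± 2.59 in controls (SD, n = 4 each), a difference of -1.87 with a 95% interval of -4.22 to 0.49 (limma adjusted p = 0.572). Without control replicate 2 the difference was -0.60 (95% interval -1.35 to 0.15, adjusted p = 0.653). In whole muscle, fewer cells of a type and less RNA per cell cannot be told apart. Over the 5406 named genes tested, CCL2 had the largest gap between control replicate 2 and the next highest array, 4.36 log2 units. Dim genes were not ranked, and among them the chemokine receptor CCR1 had a larger gap, 4.51.

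The genes whose pattern over the 8 arrays came closest to that of CCL2 were sought among 5405 others by the root mean square difference of log2 levels, each centred on its own mean. LCP1, an actin-bundling protein of leukocytes, came first at 0.38, with 5.03, 4.80, 4.69 and 4.66 on the corticosteroid arrays and 5.27, 9.52, 5.64 and 4.55 on the controls. LOC574051, which the files do not describe further, followed at 0.38 and AMBN, the enamel protein ameloblastin, at 0.47. All 3 had control replicate 2 far above the other arrays, which follows from the choice, since that array dominates the pattern of CCL2. Most of their levels on the other arrays lay below the level filter of log2 5.27, so that array brought them into the tested set. The receptor CCR2 was dim, at 4.01 to 4.41 with corticosteroid and 4.10 to 5.33 in controls, highest on control replicate 2.

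CXCL12, or SDF-1, is a chemokine of stromal and endothelial cells that retains CXCR4-bearing cells, among them muscle progenitors. The leading probe set read 8.70, 8.90, 9.28 and 9.97 on corticosteroid arrays and 9.08, 8.17, 8.05 and 8.63 on control arrays. All but control replicate 1 of the controls lay below every treated array, so the groups overlapped through that array alone. The mean was 9.21 ± 0.56 with corticosteroid and 8.48 ± 0.47 in controls (SD, n = 4 each), a difference of 0.73 (SE 0.32, 95% interval 0.00069 to 1.46, limma adjusted p = 0.524). Its unadjusted p in limma was 0.0498, and its exact two-sided permutation p was 0.114. The difference was 0.48 without corticosteroid replicate 4, the highest array.

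The second CXCL12 probe set, in a row that does not move, gave no such difference. It read 7.43, 9.03, 8.29 and 9.39 on corticosteroid arrays and 9.17, 8.20, 8.46 and 8.50 on control arrays, with full overlap. The difference was -0.05 (SE 0.41, 95% interval -0.96 to 0.87, limma adjusted p = 0.975), and it was 0.32 without corticosteroid replicate 1. The probe sets of this gene disagree most on corticosteroid replicate 1, at 8.70 for the leading one and 7.43 for the second, and both were highest on corticosteroid replicate 4. Its receptor CXCR4 was also highest there, at 6.01, 5.91, 5.30 and 8.83 with corticosteroid and 5.56, 7.60, 6.22 and 6.37 in controls (difference 0.08, SE 0.72).

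IL1B, the fever-inducing product of the inflammasome, was measured close to the level filter. Its leading probe set read 5.73, 5.68, 5.17 and 5.60 on corticosteroid arrays and 5.69, 6.53, 5.14 and 5.70 on controls. Only control replicate 2 lay above the treated range. The difference was -0.22 (SE 0.27, 95% interval -0.83 to 0.39, limma adjusted p = 0.790), and it turned to 0.035 without control replicate 2. The second probe set was dim, at 4.15 to 4.50 with corticosteroid and 4.07 to 4.43 in controls (exact two-sided permutation p = 0.857). With 4 arrays against 4, the smallest p this permutation test can give is 0.0286.

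IL18 is an inflammasome-processed cytokine like IL1B, but it is made as a standing precursor in many tissues. It varied widely in both groups. It read 6.60, 5.04, 6.78 and 4.66 on corticosteroid arrays and 6.09, 8.31, 6.21 and 6.21 on control arrays. Corticosteroid replicates 2 and 4 lay below all controls, corticosteroid replicates 1 and 3 lay above 3 of them, and control replicate 2 was the highest. The mean was 5.77 ± 1.08 with corticosteroid and 6.71 ± 1.07 in controls (SD, n = 4 each), a difference of -0.94 (95% interval -2.32 to 0.44, limma adjusted p = 0.614). Leaving out control replicate 2 gave -0.40, and leaving out corticosteroid replicate 4 gave -0.57. The closest patterns over the 8 arrays were those of SNX10, a sorting nexin, at a root mean square difference of 0.38 log2 units, GLRX, a glutaredoxin, at 0.42 and PGD, an enzyme of the pentose phosphate pathway, at 0.49. SNX10 read 7.89, 6.75, 7.60 and 6.08 on corticosteroid arrays and 8.01, 10.22, 7.60 and 7.18 on controls.

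IL15, a cytokine that muscle fibres make abundantly and that sustains natural killer and memory T cells, showed no difference in mean. It read 5.89, 6.64, 6.24 and 7.03 on corticosteroid arrays and 6.76, 5.82, 6.74 and 6.44 on control arrays. Here control replicate 2 was the lowest of the 8, opposite to its place for CCL2 and IL18. The difference was 0.01 (SE 0.29, limma adjusted p = 0.994), with a 95% interval of -0.64 to 0.66 that leaves room for a change of either sign. It was -0.20 without control replicate 2.

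IL6, an acute-phase cytokine that contracting and inflamed muscle can release, was dim on every array. It read 4.05, 3.93, 3.62 and 3.97 on corticosteroid arrays and 4.06, 4.24, 3.67 and 3.69 on controls (exact two-sided permutation p = 0.83). TNF, the macrophage cytokine linked to muscle wasting, read 4.86, 4.81, 5.00 and 4.89 with corticosteroid and 5.15, 4.99, 4.91 and 4.79 in controls (exact two-sided permutation p = 0.457). The groups overlapped for both, and the whole range over the 8 arrays was 0.63 log2 units for IL6 and 0.36 for TNF. At these low levels a difference was not detectable, which does not show that the genes were silent or alike. In a fit with no level filter, the 95% interval of the difference was -0.36 to 0.31 for IL6 and -0.33 to 0.19 for TNF.

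TGFB1 drives fibrosis and restrains muscle regeneration. The leading probe set read 4.93, 5.26, 5.68 and 5.30 on corticosteroid arrays and 5.38, 7.63, 6.13 and 5.54 on controls. Corticosteroid replicate 3 alone reached into the control range. The mean was 5.29 ± 0.31 with corticosteroid and 6.17 ± 1.03 in controls (SD, n = 4 each), a difference of -0.88 (SE 0.44, 95% interval -1.86 to 0.11, limma adjusted p = 0.548), and -0.39 without control replicate 2. The second, dim probe set had the same order of group means, at 4.76, 4.36, 4.40 and 4.57 with corticosteroid and 4.79, 5.53, 4.67 and 4.69 in controls (difference -0.39, exact two-sided permutation p = 0.0857). Control replicate 2 was highest for both probe sets, and without it the second one differed by -0.19.

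MYD88 links Toll-like and interleukin 1 receptors to NF-kB. Its leading probe set read 6.19, 6.37, 5.84 and 5.78 on corticosteroid arrays and 6.45, 7.37, 6.34 and 6.11 on control arrays. Control replicates 1 and 2 lay above all treated arrays, and control replicates 3 and 4 lay among them. The difference was -0.52 (SE 0.27, 95% interval -1.13 to 0.09, limma adjusted p = 0.559), and -0.25 without control replicate 2. The second probe set was close to the floor of the array, at 2.99 to 3.23 with corticosteroid and 2.91 to 3.06 in controls (exact two-sided permutation p = 0.200).

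**Figure D2:**
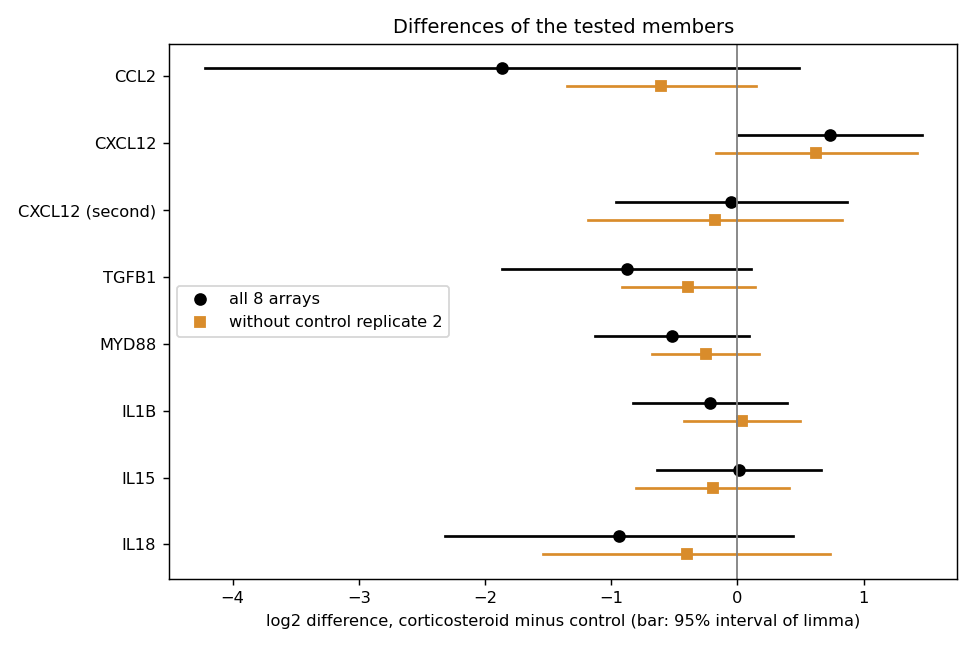
Log2 difference, corticosteroid minus control (x axis), of the 8 tested member probe sets with limma's 95% interval, for all 8 arrays (black) and without control replicate 2 (orange). CCL2 is at -1.87 with all arrays and -0.60 without that control, and every interval in the fit without it spans 0.

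The wider list of cytokine and chemokine ligands includes 6 of the member genes tested. Of 41 symbols listed, 31 genes were on the array and 19 were tested. None of the 19 passed limma at an adjusted p under 0.05, and 1, CXCL12, had an unadjusted p under 0.05. Means were lower with corticosteroid for 13 and higher for 6, with a median difference of -0.22, and without control replicate 2 they were lower for 10, with a median of -0.0021. Control replicate 2 was the highest array for 14 of the 19, and for 10 of the 13 that are not members, against 17.6% of all probe sets tested. The level filter uses a mean that includes this array. CCL3L1, described below, lay under log2 5.27 on every other array, so control replicate 2 brought it into the tested set. The count with dim ligands included, given below, does not depend on that filter. By p, IL16, a T cell attractant, came next to CXCL12 (difference -0.37, SE 0.17, adjusted p = 0.536, and -0.23 without control replicate 2), followed by TGFB1 and CCL2. IL16 read 5.45, 5.36, 5.55 and 5.38 with corticosteroid and 5.49, 6.23, 5.92 and 5.59 in controls, so that 3 controls lay above all treated arrays.

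Among other ligands, named here after their values were seen, CCL3L1, a macrophage inflammatory chemokine, read 4.76 to 5.16 on corticosteroid arrays and 4.68 to 5.21 on 3 controls, and 8.51 on control replicate 2. CCL5, a T cell and monocyte chemokine, read 6.33 to 6.67 with corticosteroid and 5.95 to 6.67 on 3 controls, and 8.65 on control replicate 2. The 5 tested ligands not highest on that array were CXCL12, IL15, TGFB2, CSF3 and CCL21, of which CXCL12, IL15 and CSF3 were highest on corticosteroid replicate 4.

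**Figure D3:**
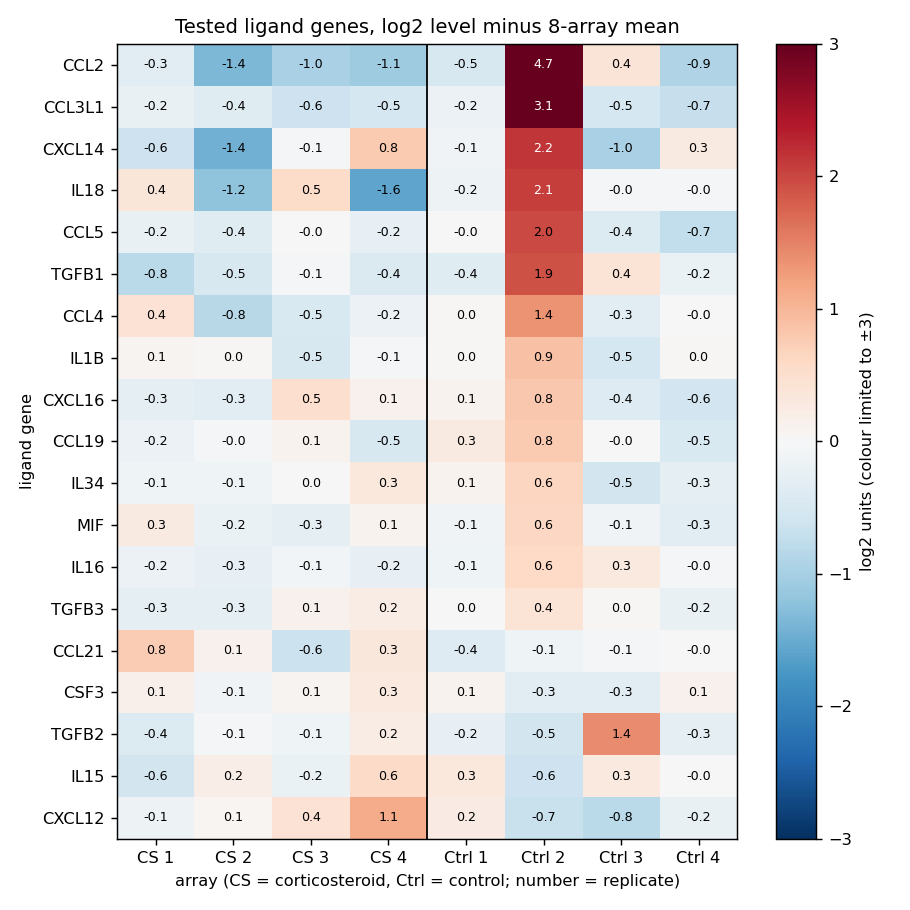
Log2 level of the 19 tested ligand genes (rows, by their value on control replicate 2) on each array (columns, corticosteroid left of control), minus the gene's 8-array mean, in log2 units by colour and number. Control replicate 2 is the highest array for 14 of the 19 genes, and CXCL12 and IL15 lie at the other end.

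The groups separated without overlap for 2 of the 31 ligands on the array, CXCL2 and CCL8, both dim, both lower with corticosteroid and both in rows that do not move. Over all 23935 probe sets with no level filter, 5.24% separated and 2.33% did so with the treated arrays lower. These genes were picked out after their values were seen. CXCL2, a chemokine that attracts neutrophils, read 3.94, 4.77, 4.63 and 4.35 on corticosteroid arrays and 5.38, 5.79, 5.01 and 5.94 on controls. In this gene control replicate 4 was the highest, and the difference of -1.10 was -1.02 without control replicate 2. The exact two-sided permutation p was 0.0286, the smallest this design can give. Any gene whose groups do not overlap gets that value, so it only restates the separation by which CXCL2 was picked. In the fit with no level filter its unadjusted p in limma was 0.00104, its SE 0.24 and its adjusted p 0.515. That fit placed 9.02% of all probe sets at an unadjusted p under 0.05 and 0.00% at an adjusted p under 0.05.

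CCL8, a chemokine related to CCL2, read 4.51, 4.46, 4.54 and 4.25 on corticosteroid arrays and 5.24, 7.59, 4.74 and 4.87 on controls. Its difference of -1.18 was -0.52 without control replicate 2, with all treated arrays still below the other 3 controls (adjusted p = 0.556 in limma with no level filter). Over the 31 ligands, dim ones included, control replicate 2 was the highest array for 19, against 16.2% of all probe sets.

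Of 17 cytokine and chemokine receptors on the array, 10 were tested and 0 passed. TGFBR3, the co-receptor betaglycan that presents TGF-beta, was the 1 of 10 with an unadjusted p under 0.05, a share near the 9.49% of all probe sets tested (difference -0.52, SE 0.19, limma adjusted p = 0.479). It read 5.79, 5.87, 6.09 and 6.41 on corticosteroid arrays and 6.34, 6.37, 6.68 and 6.85 on controls, overlapping through corticosteroid replicate 4, and it differed by -0.58 without control replicate 2. The interferon receptor chain IFNAR1 read 7.79, 7.72, 7.37 and 7.88 with corticosteroid and 7.90, 9.15, 8.16 and 8.01 in controls, a separation without overlap, as in 5.56% of all probe sets tested (difference -0.62, SE 0.28, adjusted p = 0.529). The TNF receptor TNFRSF1A differed by -0.38 (SE 0.25) and IFNAR2 by -0.29 (SE 0.19). Without control replicate 2 the differences were smaller, at -0.33 for IFNAR1, -0.25 for TNFRSF1A and -0.13 for IFNAR2. That array was the highest for 4 of the 10 tested receptors, against 17.6% of all probe sets tested. Among the signalling genes tested, described below, it was highest for 3 of 13 inhibitors and 5 of 10 genes of the Toll-like receptor list. It was also highest for 1 of 2 NF-kB genes, 4 of 11 TGF-beta genes and 4 of 8 JAK and STAT genes. Without the members MYD88 and TGFB1, the counts were 4 of 9 for the Toll-like receptor list and 3 of 10 for TGF-beta.

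The signalling lists gave no call either. Of 10 tested genes of the Toll-like receptor and MYD88 pathway, 8 had lower means with corticosteroid (median difference -0.37, and -0.09 without control replicate 2) and 0 had an unadjusted p under 0.05. After MYD88 the smallest p-values were those of the kinase MAP3K7 at -0.37 (SE 0.22), the endotoxin receptor TLR4 at -0.54 (SE 0.41) and CASP1, which cleaves the IL1B and IL18 precursors, at -0.54 (SE 0.48). TLR4 stood at 8.09 on control replicate 2, with the treated arrays at 5.96 to 6.26 and the other controls at 5.88 to 6.48, and without that array TLR4 differed by -0.06 and CASP1 by -0.09.

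Of 13 tested inhibitors of cytokine signalling, 10 had lower means (median difference -0.23, and -0.12 without control replicate 2) and 0 had an unadjusted p under 0.05. Leaving out that array gave 2 of the 13 under that level in limma, against 8.70% of all probe sets tested. SIGIRR, a brake on interleukin 1 receptor signalling, was higher on all treated arrays, at 6.36 to 6.58 with corticosteroid and 6.01 to 6.34 in controls (difference 0.27, SE 0.14, limma adjusted p = 0.551). The mRNA-destabilizing ZFP36 differed by -0.45 (SE 0.24, and -0.28 without control replicate 2), TNIP1 by -0.27 (SE 0.17) and the NF-kB inhibitor NFKBIA by -0.23 (SE 0.17). Of the 3 NF-kB genes on the array 2 were tested, TRADD at -0.27 (SE 0.16) and IKBKG at -0.41 (SE 0.35), and without control replicate 2 they differed by -0.16 and -0.66. TRADD separated without overlap, lower at 6.77 to 7.02 on treated arrays and 7.03 to 7.52 on controls. NFKB1, an NF-kB subunit and dim, separated the other way, at 3.79 to 3.91 on treated arrays and 3.56 to 3.78 on controls. The dim TLR1, of the Toll-like receptor list, also separated, at 4.15 to 4.21 on treated arrays and 4.42 to 4.62 on controls. It differed by -0.29, and by -0.24 without control replicate 2. SIGIRR, TRADD, NFKB1 and TLR1 stand against the 5.56% of tested probe sets, or 5.24% with no level filter, that separated.

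In the TGF-beta and SMAD list, 6 of 11 tested genes had lower means, with TGFBR3 again the 1 gene at an unadjusted p under 0.05, and the signal transducers SMAD3 and SMAD4 differed by 0.51 (SE 0.28) and 0.20 (SE 0.23), or 0.31 and 0.036 without control replicate 2. In the gp130, JAK and STAT list, which serves IL6, 6 of 8 tested genes had lower means and 0 had an unadjusted p under 0.05. STAT5B differed by 0.52 (SE 0.25), STAT5A by 0.50 (SE 0.40), JAK2 by -0.31 (SE 0.20) and TYK2 by -0.18 (SE 0.16). Leaving out control replicate 2 gave 0.30 for STAT5B, 0.11 for STAT5A, -0.11 for JAK2 and -0.12 for TYK2.

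Markers of macrophages were high on control replicate 2, as were CCL2, IL18, TGFB1, MYD88 and IL1B but not CXCL12, IL15 or TNF. The dim IL6 was also highest there, by little, at 4.24 with 4.06 on the next array. Of 15 markers listed, 10 were on the array and 9 were above the level filter, ITGAM being dim. Control replicate 2 was the highest array for 9 of the 10, the exception being MARCO, against 16.2% of all probe sets. The margin over control replicate 1, the next array, was small for C1QA (7.85 and 7.75), C1QC (9.45 and 9.27) and ITGAM (4.66 and 4.40). The summed linear level of the 10 markers was 778 to 1329 on corticosteroid arrays and 1022 to 1565 on 3 controls, and 4719 on control replicate 2. AIF1 stood at 9.62 there, with the treated arrays at 6.03 to 6.65 and the other controls at 6.22 to 6.67. The part of this in the differences of CCL2, IL18, TGFB1 and MYD88 was not tested beyond leaving that array out.

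Markers of other leukocytes were low. All 6 neutrophil markers on the array were dim, as were 9 of 11 of T and NK cells and 1 of 2 of B cells. Summed linear levels were 93.1 to 130 with corticosteroid and 90.7 to 198 in controls for neutrophils, 424 to 441 with corticosteroid and 336 to 502 in controls for T and NK cells, and 39.3 to 60.5 with corticosteroid and 39.3 to 91.2 in controls for B cells. The B cell sum was highest on control replicate 2, and no other control was above 47.6. Of its 2 genes only JCHAIN was high there, at 6.34 and at 4.73 to 5.58 elsewhere. The dim CD79B stood at 3.33 there and at 3.16 to 3.87 elsewhere. Fibroblast and matrix markers summed to 3367 to 5966 with corticosteroid and 2679 to 7000 in controls. Smooth muscle and pericyte markers summed to 3168 to 3475 with corticosteroid and 3045 to 6594 in controls. Both sums were highest on control replicate 2, but not every gene was. It was the highest array for 4 of 6 fibroblast and matrix genes and 3 of 5 smooth muscle and pericyte genes, against 17.6% of all probe sets tested. COL3A1 was lowest there, at 6.48, and POSTN, at 8.54, lay below every treated array (8.79 to 10.35). Adipocyte markers summed to 1883 to 9969 with corticosteroid and 2672 to 9641 in controls, endothelial markers to 1959 to 2499 with corticosteroid and 1966 to 2261 in controls, and red blood cell markers to 196 to 319 with corticosteroid and 301 to 827 in controls.

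Of 3 genes tied to glucocorticoid exposure, TSC22D3 and FKBP5 were lowest on control replicate 2 and NR3C1 was not. TSC22D3, the glucocorticoid-induced leucine zipper GILZ, read 12.61, 12.42, 12.66 and 10.60 on corticosteroid arrays and 12.36, 9.48, 12.34 and 10.86 on controls. FKBP5, a receptor co-chaperone, read 11.15, 11.22, 11.25 and 9.62 with corticosteroid and 11.11, 9.26, 10.85 and 10.20 in controls. FKBP5 on control replicate 2 was close to its value on corticosteroid replicate 4, the highest array for CXCL12, where both genes were lowest of the treated arrays. The groups overlapped for both genes, and for the receptor NR3C1, which read 7.81 to 8.65 with corticosteroid and 8.02 to 8.49 in controls.

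**Figure D4:**
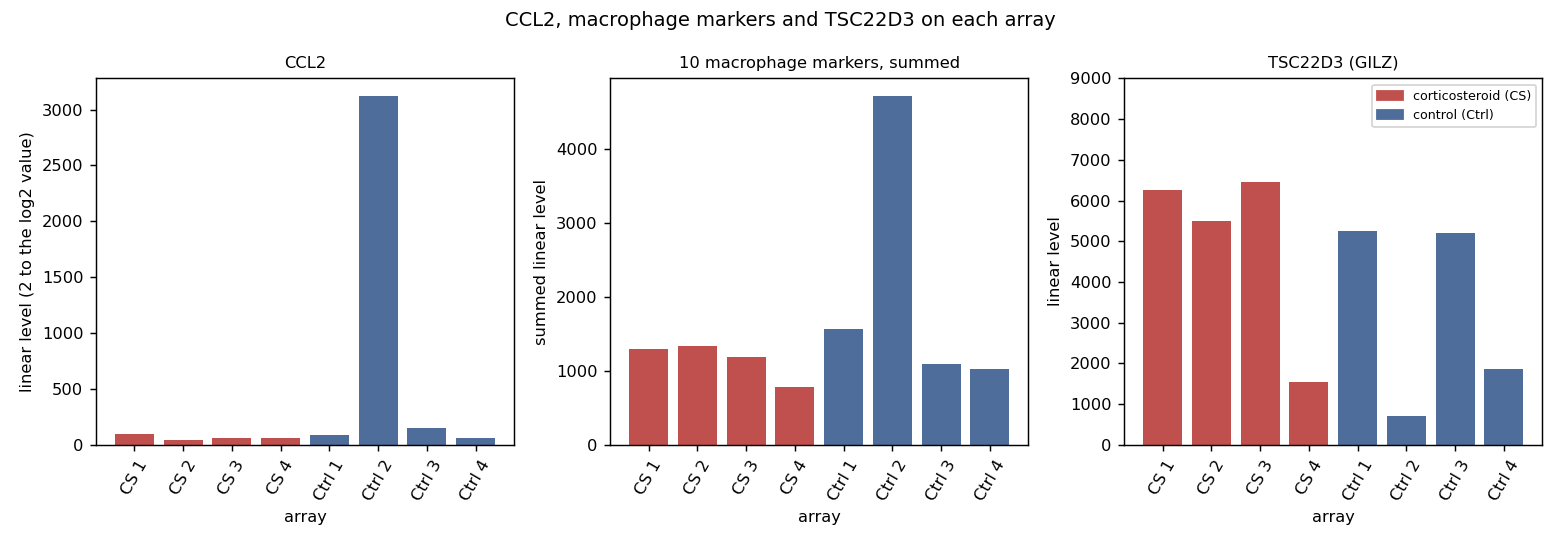
Linear level (2 to the log2 value, y axes starting at 0) of CCL2, of 10 macrophage markers summed and of TSC22D3 on each array (bars, no error since each is 1 array; red corticosteroid, blue control). Control replicate 2 is the highest for CCL2 and for the markers, which sum to 4719 there, and the lowest for TSC22D3.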

How the data were processed

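Log2 levels of 23999 probe sets on 8 arrays were used as the authors deposited them. The submitters' processing notes name MAS5 only; scaling between arrays and the genome build are not given in the sources used here, and the log2 scale was read from the values. Corticosteroid columns were re-assigned to the IDs sorted with full stops ignored (0 ties). Probe sets were named from the platform annotation (10069 with 1 symbol, 198 with several, 13732 with none; 9961 found in the current gene table). The 64 reporters were left out. The group test was that of limma 3.58.1 (R 4.3.3; lmFit, eBayes with intensity trend, Benjamini-Hochberg at 0.05) over the 14361 probe sets above the 40th percentile of mean level, and the fit was tested on simulated data. Exact permutation tests (scipy 1.17.1) are given for dim members, the leading CXCL12 probe set and CXCL2. A gene in a list is its brightest probe set. Named were all member probe sets, up to 4 genes of smallest p per list, 3 genes of nearest pattern for the 2 most variable members, NR3C1, FKBP5 and TSC22D3; other genes named were chosen after their values were seen. Members, lists and rules were chosen with earlier results of these data known. Replicate numbers did not pair the arrays. The number of arrays limits the precision (median SE 0.219). Alternatives covered row order, normalization, filter, offset, variance model, weights, probe set averaging, a replicate block and leaving out each array.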

Additional observations from a re-analysis of the deposited data

Results flagged for a closer look

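Dixon's ratio, the gap of the farthest array divided by the range of its group, was computed for the 26 groups of 4 arrays of the 13 member probe sets. It passed its 95% critical value in 3 of them, where chance gives about 5%. Over all probe sets tested it passed in 5.81% of corticosteroid groups and 6.71% of control groups. IL18 stood at 8.31 on control replicate 2, with the other controls at 6.09 to 6.21. The dim TGFB1 probe set stood at 5.53 on the same array, with the other controls at 4.67 to 4.79. The dim IL1B probe set stood at 4.50 on corticosteroid replicate 1, with the others at 4.15 to 4.19. CCL2 on control replicate 2 (11.61) did not pass, with a ratio of 0.774, because control replicate 3 also lay above the other controls.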

How the results depend on the processing

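With the rows as deposited, limma called 5454 probe sets, 3 of them members, and 7 ligands, 2 receptors, 2 inhibitors, 2 Toll-like receptor genes, 2 NF-kB genes, 3 TGF-beta genes and 5 JAK-STAT genes, where the re-assigned rows gave 0 throughout. Differences that then changed sign were 0.51 for CCL2, -2.04 for the leading CXCL12 probe set and 0.40 for the dim TGFB1 one. The dim IL1B probe set, at 4.70, and IL6, at 4.09, also changed sign. Those that kept it were -1.52 for the leading TGFB1 probe set, -0.50 for the leading MYD88 one and 4.66 for the dim MYD88 one. IL18, at -0.041, and TNF, at -1.52, kept it too. The replicate numbers of the titles did not pair the arrays (r of same-numbered deviations from -0.246 to 0.109), and the fit with a replicate block called 0 probe sets, 1332 at an unadjusted p under 0.05, with MYD88 and TGFB1 as the 2 members among them. When each array was left out, the calls ran from 0 to 1, the 1 being AKR1CL1 without control replicate 3 (adjusted p = 0.0130, and 0.469 with all arrays), and probe sets at an unadjusted p under 0.05 from 892 to 1783. The 1 member probe set at an unadjusted p under 0.05 became 0 to 3 with an array left out. The 3, without control replicate 4, were the leading ones of CCL2, TGFB1 and MYD88 and not CXCL12. That fit placed 1404 of the 14361 probe sets at that level. The member count was 0 with quantile normalization, 16 added before log2, array weights or probe sets of a gene averaged. Signs turned for members near 0: -0.33 to 0.32 for the second CXCL12 probe set, -0.43 to 0.035 for the leading and -0.11 to 0.022 for the dim IL1B one, -0.11 to 0.086 for IL6 and -0.20 to 0.20 for IL15. CCL2 ran from -2.48 to -0.60. IL15 was -0.12 with array weights and IL6 0.0028 with median centring. Apart from the rows as deposited, 0 tested members passed under any alternative, with a smallest adjusted p of 0.369.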

Other observations

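Named genes above the level filter were ranked by the gap between control replicate 2 and the next highest array, after the values were seen and with no test. Behind CCL2, ranks 2 to 15 were held by CAPG, CTSZ, AMBN, LCP1, CD53, S100A4, ACP5, GMFG, CPM, CD86, IFI30, GPNMB, LOC574051 and CCL3L1, in that order. CAPG, an actin-capping protein, stood at 10.62 on that array and at 6.33 on the next highest. The lysosomal protease CTSZ stood at 12.23 and 8.22, the enamel protein AMBN at 9.32 and 5.39, the leukocyte tetraspanin CD53 at 10.87 and 7.14, and CPM, a carboxypeptidase, at 10.64 and 7.10. CTSZ, CD53 and CPM lie in rows that the re-assignment does not move.

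Control replicate 2 was the highest array for 7 of the 17 cytokine and chemokine receptors on the array, dim ones included, against 16.2% of all probe sets. The 7 were CCR1, CCR2, IL2RG, TNFRSF1A, TNFRSF1B, IFNAR1 and IFNAR2. CCR1, a receptor of CCL3- and CCL5-type chemokines, was dim by its mean and so untested, but it stood at 9.34 on control replicate 2 and at no more than 4.84 on the other 7 arrays. IL2RG, the shared chain of the IL15 receptor, stood at 7.45 there and at 4.50 to 5.19 elsewhere, and the TNF receptor TNFRSF1B at 10.03, with 7.95 to 8.39 elsewhere. The other 10 receptors, CXCR4, TGFBR1, IFNGR1, IL6R and CCR7 among them, were highest on other arrays.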
